A study of Mus musculus with 9 samples.

Results

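Interferon-stimulated genes are the genes that cells switch on after a type I or type II interferon binds its receptor, and 44 of them, listed by symbol, are described here in N1E-115 cells. A gene was taken to be measured where a probe set carried its symbol and no other, and its brightest probe set by mean over 9 arrays stood for it. That left 39 measured members of 22180 measured genes. Of the other 5 listed genes, Oas1a, Parp10, Dtx3l and Gbp2 were only on probe sets shared with another gene (Oas1g, Plec, Parp9 and Gbp2b) and Ifi44 was on none that carried its symbol, so they have no value here.

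N1E-115 is a mouse neuroblastoma line, used as a cell model of neurite outgrowth. The 9 arrays form 3 groups of 3: Hmgn5 siRNA cells after 24 h of differentiation, control siRNA cells after 24 h, and control siRNA cells after 4 h. All 3 groups received 80 nM of an siRNA pool, were starved overnight in Neurobasal medium without serum and moved onto laminin, so every group had been transfected with RNA. No group without siRNA and no group given interferon is among these arrays, and Hmgn5 siRNA at 4 h is not among them either. Hmgn5 encodes a nucleosome-binding protein of the high mobility group N family.

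Type I interferons bind the Ifnar1 and Ifnar2 receptor chains, which activate the kinases Jak1 and Tyk2. Stat2 and Irf9 then act together at the interferon-stimulated response element (ISRE) upstream of target genes, and interferon gamma acts through the gamma-activated site (GAS). The products sense or degrade viral RNA, block viral entry and translation, and raise the display of peptides on MHC class I. Many cells also hold a low level of these transcripts with no added interferon.

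Values are log2 signals per probe set, with array medians between 5.16 and 5.30. Control 4 h replicate 2 stood apart, correlating with the others at no more than 0.986 where the remaining pairs reached at least 0.991. Of 13 measured sympathetic neuroblastoma markers, 11 lay above the median signal of all genes, with Chgb and Th at the 99.9 and 98.2 percentiles of an array, and Ddc (37.0) and Nefl (16.6) lay below it; Ptprc, the defining leukocyte antigen, was at the 15.3 percentile. Such a position also depends on a gene's probes. Of 23 leukocyte and microglia markers, 1 was above the median signal of all genes, and none was called in either comparison. In bulk RNA, fewer cells carrying a transcript and less of it per cell cannot be told apart. Since no label tells if replicates were grown apart, each p-value refers to the variation among the arrays at hand, which may be technical.

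Hmgn5 itself had 3.53, 3.45 and 3.50 in Hmgn5 siRNA cells at 24 h, against 4.77, 4.66 and 4.69 in control siRNA cells at 24 h. The groups did not overlap. The difference was -1.21 (SE 0.09, adjusted p = 0.00367), which left 43.1% of the control signal. Hmgn5 was dim, with a median over the arrays at the 31.0 percentile of all genes and a lowest array at 9.07. The 43.1% is a share of array signal, and the transcript left was not measured. An exact two-sided permutation test gave 0.1, the smallest p that 3 arrays against 3 allow.

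The upstream sequences of 6 members are shown first because they carry, or lack, letters that match the core of the ISRE. Each is the 250 bases before the annotated start site, 5′ to 3′ on the strand of the gene, from RefSeq (GRCm38.p6), and capitals mark matches on either strand to the ISRE core, which is GAAA, any 2 bases and GAAA. Stat2 (chr10:128270248-128270497, plus strand), Ifit1 (chr19:34640639-34640888, plus strand), Ifit3 (chr19:34583279-34583528, plus strand) and Isg15 (chr4:156200819-156201068, minus strand) hold matches. Parp3 (chr9:106476950-106477199, minus strand) and Tap1 (chr17:34187306-34187555, plus strand) hold none.
Stat2: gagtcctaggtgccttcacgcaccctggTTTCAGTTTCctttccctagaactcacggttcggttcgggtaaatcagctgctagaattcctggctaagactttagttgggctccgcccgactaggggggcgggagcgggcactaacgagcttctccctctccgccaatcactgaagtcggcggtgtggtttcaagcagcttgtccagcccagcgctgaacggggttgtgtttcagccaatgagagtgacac
Ifit1: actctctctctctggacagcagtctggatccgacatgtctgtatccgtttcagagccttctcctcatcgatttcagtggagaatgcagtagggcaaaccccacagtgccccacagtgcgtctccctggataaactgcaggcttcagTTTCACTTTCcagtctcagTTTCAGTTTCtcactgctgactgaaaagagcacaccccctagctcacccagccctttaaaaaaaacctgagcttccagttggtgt
Ifit3: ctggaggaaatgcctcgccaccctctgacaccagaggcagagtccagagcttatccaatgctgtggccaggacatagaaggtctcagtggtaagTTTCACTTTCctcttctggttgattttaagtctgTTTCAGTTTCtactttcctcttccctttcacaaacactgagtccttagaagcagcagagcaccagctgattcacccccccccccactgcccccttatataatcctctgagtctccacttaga
Isg15: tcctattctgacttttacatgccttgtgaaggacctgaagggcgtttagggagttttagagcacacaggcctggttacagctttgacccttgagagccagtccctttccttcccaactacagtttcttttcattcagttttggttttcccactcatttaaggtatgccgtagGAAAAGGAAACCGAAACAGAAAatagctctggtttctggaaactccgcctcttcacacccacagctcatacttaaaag
Parp3: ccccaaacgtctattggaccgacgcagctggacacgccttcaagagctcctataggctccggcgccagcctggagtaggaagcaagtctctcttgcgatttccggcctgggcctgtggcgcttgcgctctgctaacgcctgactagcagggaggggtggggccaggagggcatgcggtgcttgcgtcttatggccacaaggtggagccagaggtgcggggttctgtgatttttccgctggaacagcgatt
Tap1: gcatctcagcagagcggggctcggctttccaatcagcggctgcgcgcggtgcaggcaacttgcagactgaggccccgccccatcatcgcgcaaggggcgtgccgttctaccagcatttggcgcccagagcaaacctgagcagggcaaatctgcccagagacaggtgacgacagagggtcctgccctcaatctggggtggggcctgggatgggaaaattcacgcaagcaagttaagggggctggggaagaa

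Stat2 has a single match, at bases -222 to -213 counted from its start site at 0. Ifit1 and Ifit3 lie near each other on chromosome 19 and each has a pair of matches, at -104 to -95 and -85 to -76 in Ifit1 and at -156 to -147 and -122 to -113 in Ifit3, all on the strand opposite to the gene. In Isg15, 3 matches overlap in a single run at -78 to -57. The Tap1 window shares 275 of its 300 bases with that of Psmb9, whose annotated start site is 226 bases away.

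Promoter windows of 300 bases (250 before and 50 after the start site) were found for 35 of the 44 listed members. The ISRE core was in 15 of these 35 (42.9%), against 1079 of 27025 genes of the whole promoter table (3.99%). The GAS core (TTC, any 3 bases and GAA), which reads alike on both strands, was in 9 of 35 members (25.7%), against 9.55% of all genes. The 2 motifs overlapped in Bst2 and Ifitm3. A match describes the letters of a window and is not a binding site, and a window without one says nothing of the factors that act on the gene.

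**Figure D1:**
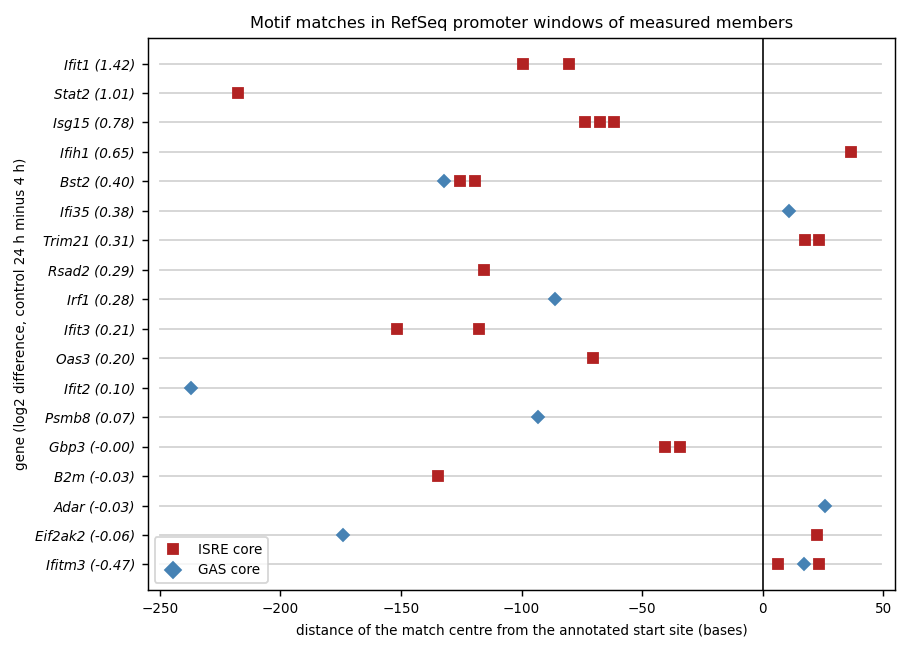
Positions of ISRE core (squares) and GAS core (diamonds) matches in the promoter windows of measured members that hold any; the x axis gives the distance of the match centre from the annotated start site in bases, and the number beside each gene is its log2 difference, control siRNA 24 h minus 4 h. Matches lie on both sides of the start site, and genes with a match run from Ifit1 (1.42) to Ifitm3 (-0.47).

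The first question was how these genes changed in control cells between 4 h and 24 h of differentiation. In this design, time of differentiation cannot be told apart from time since transfection or since serum withdrawal. At 24 h 6 members rose and none fell: Ifit1, Parp3, Stat2, Oasl2, Tap1 and Ifi35, by 1.30-fold to 2.68-fold. That is 6 of 39 members (15.4%), where 963 of 22180 genes (4.34%) were called at an adjusted p under 0.05, 481 of them higher (2.17%) and 482 lower (2.17%). With each array centred on its median the split was 389 higher and 625 lower, and Ifitm3 was then called lower while Tap1 was not called. The difference was above 0 for 31 of 39 members (79.5%) and for 54.9% of all genes. The median difference was 0.15 over the members and 0.016 over all genes. The 24 h arrays lay wholly above the 4 h arrays for 15 members (38.5%; 11.3% of all genes) and wholly below them for 2, Ifitm3 and Mx1 (5.13%; 9.98% of all genes). Markers of the line's own cell type moved over the same interval: 2 of 13 sympathetic neuroblastoma markers rose (15.4%), Dbh by 0.80 and Th by 0.53, 10 of 13 were above 0 and their median was 0.12. Their part in the members' differences was not tested.

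The second question was what lowering Hmgn5 changed at 24 h. No member was called in limma's test, where 3 of 22180 genes (0.0135%) were called, 1 of them with the replicate number as a block. At an unadjusted p under 0.05 there was 1 member, Usp18 (2.56%; 5.25% of all genes). The members split into 20 above 0 (49.2% of all genes were) and 19 below, with a median of 0.0062 over the members and -0.0019 over all genes. Hmgn5 siRNA arrays lay wholly above control arrays at 24 h for 4 members, Usp18, B2m, Psmb10 and Bst2 (10.3%; 6.65% of all genes), and wholly below for Stat2 and Tap1 (5.13%; 5.62% of all genes). The 95% interval of the difference lay within a 1.5-fold change in either direction for 36 of 39 members, the exceptions being Usp18, Bst2 and Ifit1. With the replicate block it did for 38, the exception being Bst2. The share of all genes with such an interval was not computed, so these counts have no background. Within the 3 same-numbered pairs at 24 h, 7 members were above 0 in each (17.9%) and 7 below 0 in each (17.9%). Of 22180 genes, 3448 (15.55%) and 3188 (14.37%) were, so the members lay near the shares of all genes.

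**Figure D2:**
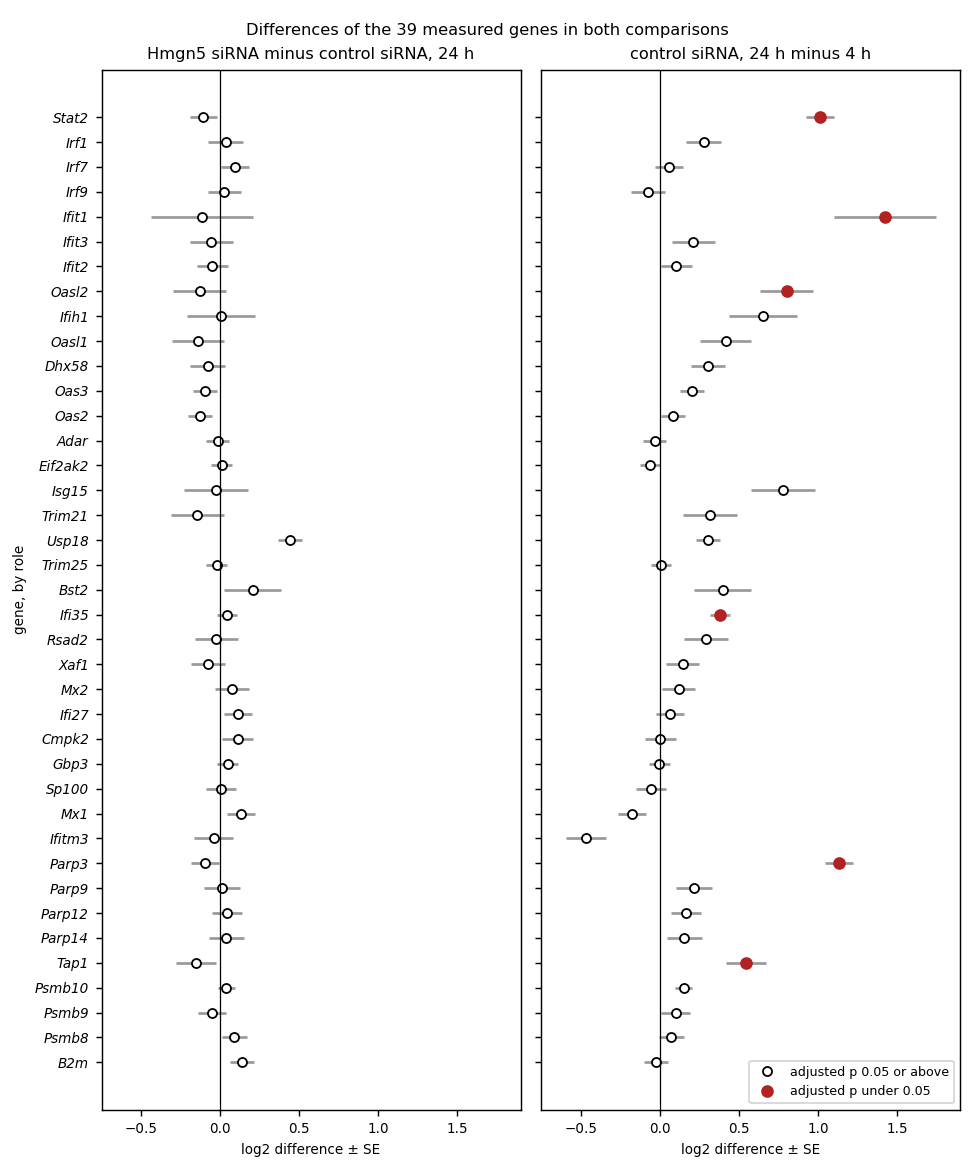
Log2 difference ± SE of each of the 39 measured members, grouped by role, for the effect of Hmgn5 siRNA over control siRNA at 24 h (left) and control siRNA 24 h minus 4 h (right); filled points have an adjusted p under 0.05. The 6 filled points are all in the right panel, and on the left Usp18 (0.44) lies farthest from 0.

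**Figure D3:**
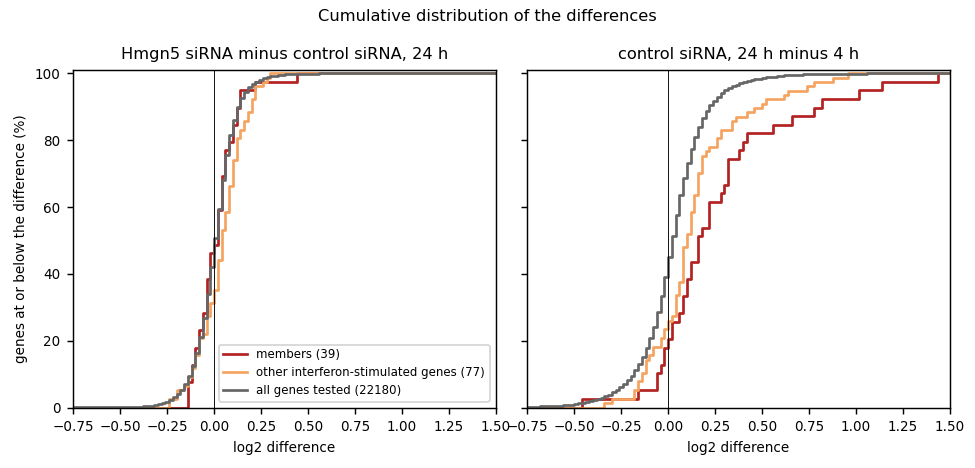
Share of genes (%) at or below each log2 difference, for 39 members, 77 other interferon-stimulated genes and 22180 genes tested, in both comparisons. In the time comparison the members' curve lies to the right of that of all genes over most of the range, with medians of 0.15 and 0.016; in the siRNA comparison the members' median is 0.0062.

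Both comparisons use the control arrays at 24 h, so the differences of a gene in the 2 comparisons are not independent. A further contrast sets Hmgn5 siRNA cells at 24 h against control cells at 4 h, so that siRNA and time change together. In it 4 members were higher and none lower (10.3%; 2.57% of all genes called, 1.52% higher): Parp3 (1.04), Stat2 (0.91), Usp18 (0.75) and Ifi35 (0.42).

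Among the transcription factors, Stat2, which acts with Irf9 at the ISRE, rose at 24 h. Its values were 9.25, 9.24 and 9.15 in Hmgn5 siRNA cells at 24 h, 9.43, 9.27 and 9.26 in control cells at 24 h, and 8.46, 8.15 and 8.31 in control cells at 4 h. The 24 h arrays of both siRNAs lay above all 4 h arrays. The time difference was 1.01 (SE 0.09, 2.02-fold, adjusted p = 0.000626), and the siRNA difference at 24 h was -0.11 (SE 0.09, adjusted p = 0.990) although those groups did not overlap. The other 3 factors were not called in either comparison. Irf1, a factor induced by interferon gamma, differed over time by 0.28 (adjusted p = 0.220), Irf7, which drives interferon alpha genes, by 0.06 and Irf9 by -0.08.

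Of the IFIT proteins, Ifit1 binds viral RNA that lacks the methylation of host caps and hinders its translation. Ifit1 had 7.16, 7.04 and 8.05 in Hmgn5 siRNA cells at 24 h, 7.27, 7.13 and 8.21 in control cells at 24 h, and 5.78, 6.23 and 6.33 in control cells at 4 h. Replicate 3 was the highest array in both 24 h groups, and those groups overlapped. Over time Ifit1 rose by 1.42 (SE 0.32, 2.68-fold, adjusted p = 0.0406), the largest difference among the members. The call was kept when Hmgn5 siRNA replicate 3 was left out and lost when any of the other 8 arrays was, with an adjusted p of 0.0299 to 0.114 over these 9 fits. The siRNA difference was -0.12 with a 95% interval of -0.84 to 0.61. Within same-numbered pairs it was -0.11, -0.09 and -0.15, and a fit blocked by replicate gave an interval of -0.51 to 0.28 (adjusted p = 0.983).

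Ifit3, with the same number of ISRE matches, was not called over time (0.21, adjusted p = 0.477), nor was Ifit2 (0.10, adjusted p = 0.648). Ifit2 was among the dimmest members, with 3.70, 3.80 and 3.70 in Hmgn5 siRNA cells at 24 h, 3.70, 3.67 and 3.99 in control cells at 24 h, and 3.80, 3.55 and 3.70 in control cells at 4 h. All 3 of its groups overlapped.

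The next set senses, makes or edits double-stranded RNA signals. Oasl2, a 2'-5' oligoadenylate synthetase-like protein, rose in control cells at 24 h. It had 6.35, 6.34 and 6.64 in Hmgn5 siRNA cells at 24 h, 6.47, 6.28 and 6.98 in control cells at 24 h, and 5.61, 5.83 and 5.87 in control cells at 4 h. The lowest 24 h array was above the highest 4 h array, and replicate 3 was again the highest in both 24 h groups. The time difference was 0.80 (SE 0.17, 1.74-fold, adjusted p = 0.0284), and the call was lost in 6 of the 9 fits without a single array (0.0351 to 0.0802).

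Ifih1, which encodes the RNA sensor MDA5, was among the members that varied most within a group. It had 6.19, 5.85 and 6.75 in Hmgn5 siRNA cells at 24 h, 6.08, 6.09 and 6.60 in control cells at 24 h, and 5.61, 5.75 and 5.46 in control cells at 4 h. The 24 h control arrays did not overlap the 4 h arrays, and the difference of 0.65 (SE 0.22) had an adjusted p of 0.139. For Oasl1, a relative of Oasl2 known in mice to restrain translation of Irf7, the time difference was 0.42 (adjusted p = 0.213), and for Dhx58, the LGP2 sensor, it was 0.30 (adjusted p = 0.171).

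Of the 2'-5' oligoadenylate synthetases proper, which switch on RNase L, Oas2 had 4.87, 5.03 and 4.87 in Hmgn5 siRNA cells at 24 h, 5.03, 5.08 and 5.04 in control cells at 24 h, and 5.03, 4.84 and 5.04 in control cells at 4 h. Oas3 had 5.42, 5.45 and 5.42 in Hmgn5 siRNA cells at 24 h, 5.42, 5.52 and 5.63 in control cells at 24 h, and 5.20, 5.42 and 5.35 in control cells at 4 h. Both were among the 5 members with the smallest unadjusted p for the siRNA, with differences of -0.13 and -0.10 and adjusted p of 0.984 and 0.989. Eif2ak2, the kinase PKR that halts translation, differed over time by -0.06 and Adar, which edits double-stranded RNA, by -0.03, neither of them called.

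The ISG15 pathway attaches a ubiquitin-like protein to others, and Usp18 both removes it and restrains signalling at Ifnar2. Usp18 had 7.13, 7.02 and 6.96 in Hmgn5 siRNA cells at 24 h, 6.69, 6.58 and 6.51 in control cells at 24 h, and 6.35, 6.34 and 6.18 in control cells at 4 h. The 3 groups were ordered with no overlap between any of them. The siRNA difference of 0.44 (SE 0.08, unadjusted 95% interval 0.27 to 0.61) had an adjusted p of 0.269. Within same-numbered pairs it was 0.44, 0.43 and 0.44, and with the replicate block the adjusted p was 0.285. The time difference of 0.31 (SE 0.08) had an adjusted p of 0.0575. Between Hmgn5 siRNA at 24 h and control siRNA at 4 h, where both conditions differ, Usp18 was higher by 0.75 (adjusted p = 0.00284).

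Isg15 itself, described here after its values were seen, had 4.57, 4.51 and 5.03 in Hmgn5 siRNA cells at 24 h, 4.51, 4.50 and 5.17 in control cells at 24 h, and 3.96, 3.73 and 4.15 in control cells at 4 h. All 6 arrays at 24 h were above all 3 at 4 h. The time difference was 0.78 (SE 0.20) with an adjusted p of 0.0657, and the siRNA difference was -0.02 with an interval of -0.48 to 0.43. The ubiquitin ligases Trim21, a cytosolic antibody receptor, and Trim25, which acts on the RIG-I sensor, differed over time by 0.31 and 0.0056, neither of them called.

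**Figure D4:**
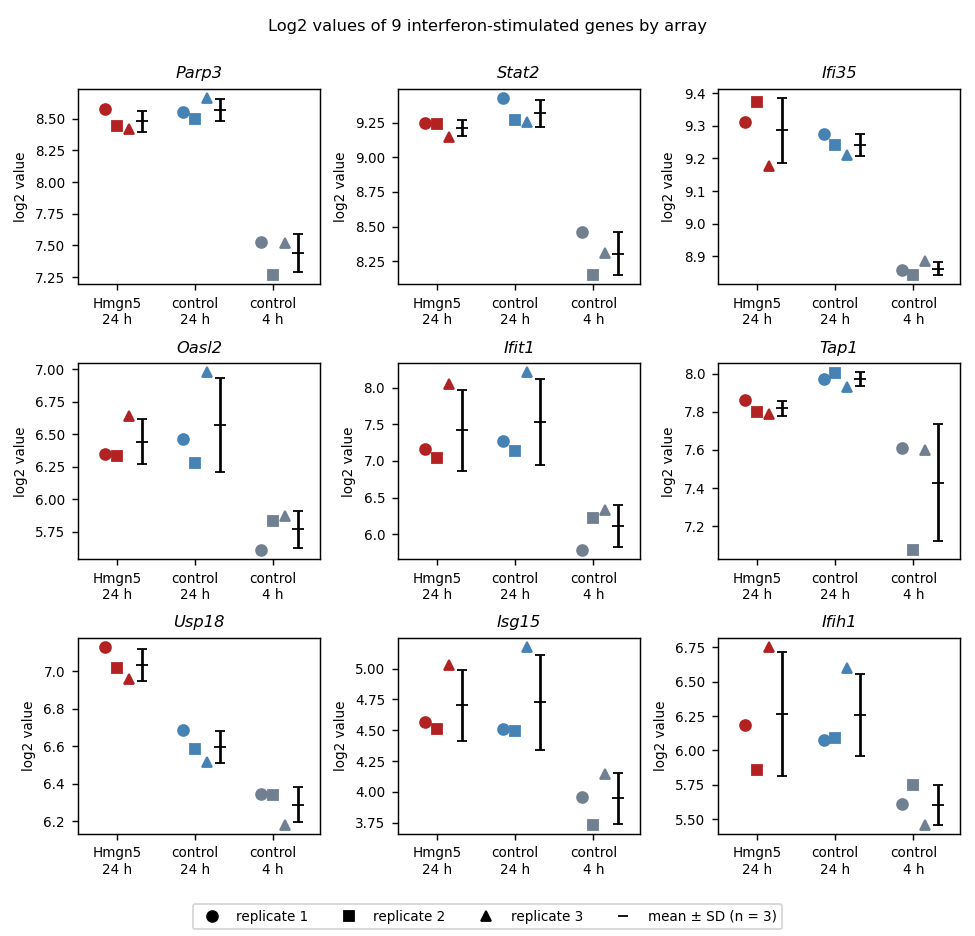
Log2 values of 9 members on each array for Hmgn5 siRNA 24 h, control siRNA 24 h and control siRNA 4 h; the symbol gives the replicate number and the bar the mean ± SD (n = 3). Parp3, Stat2, Ifi35 and Tap1 are close together at 24 h, replicate 3 is the highest 24 h array for Oasl2, Ifit1, Isg15 and Ifih1, and the 3 groups of Usp18 do not overlap.

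Of 11 measured members in the set of other antiviral effectors, Ifi35, which encodes a leucine zipper protein that partners Nmi, rose over time. It had 9.31, 9.37 and 9.18 in Hmgn5 siRNA cells at 24 h, 9.28, 9.24 and 9.21 in control cells at 24 h, and 8.86, 8.84 and 8.89 in control cells at 4 h. The difference of 0.38 (SE 0.06, 1.30-fold, adjusted p = 0.0136) was small but wider than the spread within the groups. A second probe set of Ifi35 differed by -0.06 (adjusted p = 0.801), and with the mean of both the difference was 0.16 (adjusted p = 0.269). The call was also lost without control 24 h replicate 1 or replicate 2, with an adjusted p of up to 0.0590.

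Mx1, a GTPase that traps viral nucleoproteins, was dim and had 3.79, 4.13 and 3.96 in Hmgn5 siRNA cells at 24 h, 3.76, 3.88 and 3.85 in control cells at 24 h, and 4.06, 4.03 and 3.93 in control cells at 4 h. Its control 24 h arrays lay below its 4 h arrays, with a difference of -0.18 (adjusted p = 0.334). Gbp3, a guanylate-binding GTPase, had 3.91, 4.05 and 3.91 in Hmgn5 siRNA cells at 24 h, 3.89, 3.84 and 4.00 in control cells at 24 h, and 3.91, 3.92 and 3.92 in control cells at 4 h. Its time difference was -0.0043 and its groups overlapped.

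Bst2, or tetherin, which holds budding virus at the cell surface, had 6.61, 6.75 and 6.54 in Hmgn5 siRNA cells at 24 h, 6.45, 6.38 and 6.45 in control cells at 24 h, and 6.45, 5.55 and 6.09 in control cells at 4 h. The siRNA difference was 0.20 (SE 0.18, adjusted p = 0.993), and the wide spread at 4 h came with control 4 h replicate 2 as the lowest array. Ifi27, a small interferon-induced membrane protein, had 9.93, 9.80 and 9.90 in Hmgn5 siRNA cells at 24 h, 9.80, 9.63 and 9.86 in control cells at 24 h, and 9.76, 9.54 and 9.81 in control cells at 4 h. All 3 groups overlapped.

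Ifitm3, which blocks fusion of viruses with endosomes, is singled out after its values were seen because it ran opposite to most members. It had 8.99, 8.87 and 8.81 in Hmgn5 siRNA cells at 24 h, 8.85, 8.79 and 9.16 in control cells at 24 h, and 9.29, 9.65 and 9.26 in control cells at 4 h. All 6 arrays at 24 h were below all 3 at 4 h, and the time difference was -0.47 (SE 0.13, adjusted p = 0.0737). The remaining 5 effectors, Rsad2 (viperin), Cmpk2, Mx2, Sp100 and Xaf1, had time differences of -0.06 to 0.29 and were not called in either comparison.

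Parp3 was the member with the smallest adjusted p. It encodes an ADP-ribosyltransferase best known for its part in the repair of DNA breaks, so its role differs from that of most genes here. It had 8.58, 8.44 and 8.42 in Hmgn5 siRNA cells at 24 h, 8.55, 8.50 and 8.67 in control cells at 24 h, and 7.53, 7.26 and 7.52 in control cells at 4 h. The 24 h groups overlapped each other and both lay well above the 4 h arrays. Over time Parp3 rose by 1.13 (SE 0.09, 2.20-fold, adjusted p = 0.000447), and the siRNA difference was -0.09 (SE 0.09, 95% interval -0.29 to 0.10). Parp9, Parp12 and Parp14, relatives tied more closely to the antiviral response, differed over time by 0.15 to 0.21 and were not called. None of 11 further genes of the poly-ADP-ribose polymerase family was called in either comparison.

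Among the antigen processing genes, Tap1, a subunit of the transporter that brings peptides into the endoplasmic reticulum, rose over time. It had 7.86, 7.80 and 7.79 in Hmgn5 siRNA cells at 24 h, 7.98, 8.00 and 7.93 in control cells at 24 h, and 7.61, 7.07 and 7.60 in control cells at 4 h. Control 4 h replicate 2 was the lowest array by far. The time difference was 0.54 (SE 0.13, 1.46-fold, adjusted p = 0.0450). The call was lost in 7 of 9 fits without a single array, all but those without control 4 h replicate 1 or 2, and the adjusted p ran from 0.00917 to 0.144. Hmgn5 siRNA arrays lay below control arrays at 24 h, with a difference of -0.15 (SE 0.13, adjusted p = 0.990).

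The immunoproteasome subunits replace constitutive subunits when interferon acts. Psmb9, which shares most of the upstream window of Tap1, differed over time by 0.10 (adjusted p = 0.627), and Psmb8 by 0.07. Psmb10 had 9.77, 9.79 and 9.81 in Hmgn5 siRNA cells at 24 h, 9.76, 9.75 and 9.76 in control cells at 24 h, and 9.65, 9.62 and 9.54 in control cells at 4 h. Its 3 groups were ordered without overlap over a narrow range, and the time difference of 0.15 had an adjusted p of 0.181. The constitutive counterparts Psmb5, Psmb6 and Psmb7 were not called in either comparison.

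B2m, the light chain of MHC class I, was the brightest member. It had 11.83, 11.85 and 11.75 in Hmgn5 siRNA cells at 24 h, 11.64, 11.69 and 11.68 in control cells at 24 h, and 11.56, 11.85 and 11.68 in control cells at 4 h. The Hmgn5 siRNA arrays lay above the 24 h control arrays, with a difference of 0.14 (SE 0.08, adjusted p = 0.979).

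**Figure D5:**
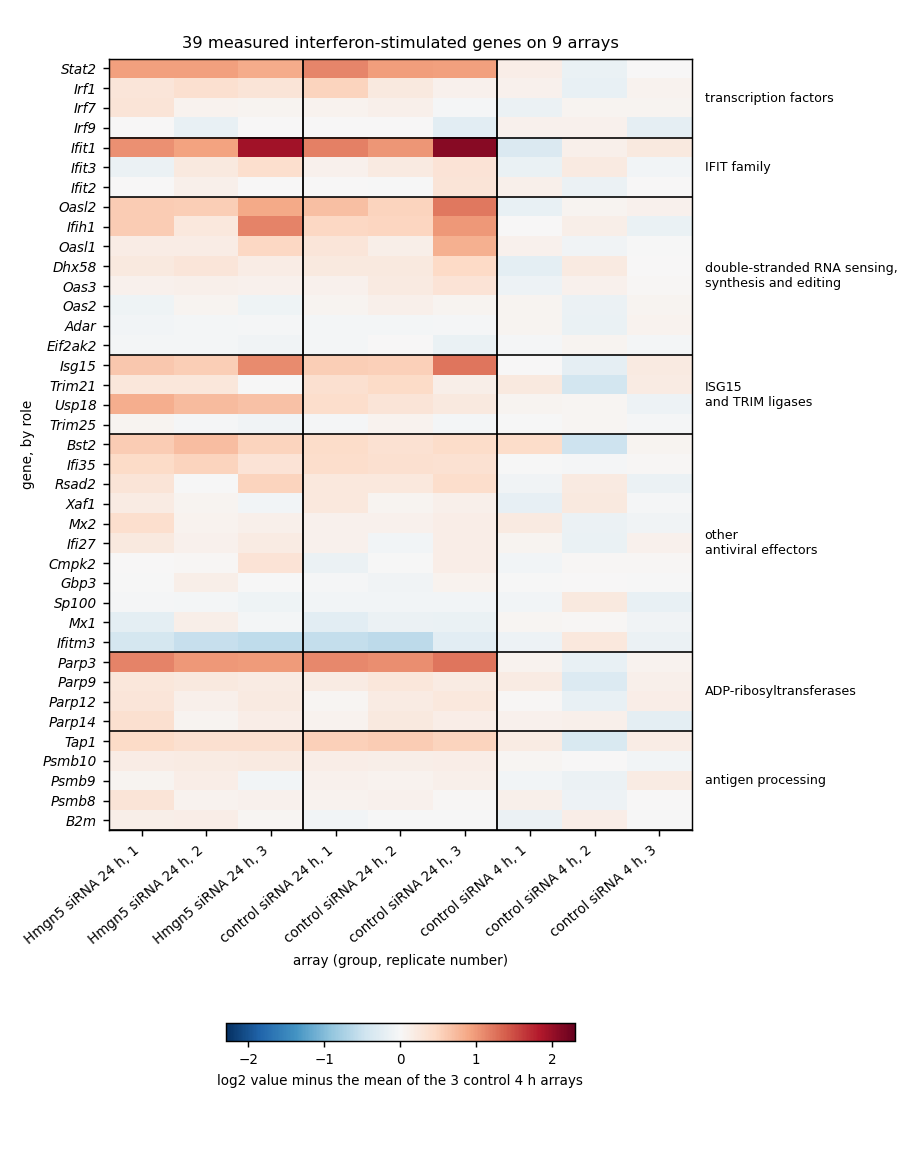
Log2 value of each of the 39 measured members on each array minus the mean of its 3 control 4 h arrays, with Hmgn5 siRNA 24 h on the left, control siRNA 24 h in the middle and control siRNA 4 h on the right, and genes grouped by role. Red rows at 24 h include Stat2, Ifit1, Oasl2, Isg15 and Parp3 in both siRNA groups, and Ifitm3 is blue at 24 h.

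The arrays numbered 3 at 24 h shared a pattern across siRNAs. Both lay above the other 4 arrays at 24 h for 9 of 39 members (23.1%), against 7.97% of all genes: Ifit1, Ifih1, Isg15, Oasl1, Oasl2, Rsad2, Cmpk2, Ifit3 and Adar. Both lay below them for 5 members (12.8%; 9.78% of all genes), Trim21, Irf7, Ifi35, Trim25 and Eif2ak2. The mean excess over the other 24 h arrays was 0.98 for Ifit1, 0.62 for Ifih1 and 0.58 for Isg15, while it was 0.02 for Parp3 and -0.10 for Stat2. Of 77 other interferon-stimulated genes, 7 lay above (9.09%) and 5 below (6.49%), against 7.97% and 9.78% of all genes; picked after their values were seen, the chemokine gene Cxcl10 had an excess of 0.77 and Iigp1 one of -0.28.

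Genes of G2 and mitosis moved with the same arrays. Of 23 measured, 21 lay above the other 24 h arrays on both arrays numbered 3. Their mean level relative to the control 4 h arrays ran from -0.09 to 0.44 in Hmgn5 siRNA cells at 24 h, from -0.19 to 0.26 in control cells at 24 h and from -0.0027 to 0.0033 in control cells at 4 h, with the arrays numbered 3 the highest at 24 h. Their part in the members' values was not tested. Without both arrays, an alternative chosen after seeing the data, 266 of all genes and 4 members were called over time, namely Parp3, Stat2, Ifi35 and Ifit1, and the time difference of Ifit1 was 1.09 (adjusted p = 0.0372).

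Control 4 h replicate 2 was the lowest of all 9 arrays for 18 of 39 members (46.2%; 22.6% of all genes), among them Stat2, Parp3, Tap1 and Isg15, and the highest for 5 (12.8%; 21.8% of all genes), among them Ifitm3 and B2m. Without it 6 members were called over time, with Dhx58 in place of Ifit1, and the median difference of the members was 0.10. Calls over all 22180 genes then numbered 1238, against 963 with every array. Stat2 and Parp3 were called over time in each of the 20 alternative fits.

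Other genes of the pathway, listed apart from the members, were set beside them. Both lists were chosen with earlier results of these data known, so neither is an independent check. Of 77 measured among 89 other interferon-stimulated genes, 7 rose over time and none fell: Rtp4 (0.95), Igtp (0.88), Herc6 (0.76), Pml (0.51), Tapbp (0.45), Mlkl (0.41) and Isg20 (0.28). All 7 are 9.09% of the list, against 4.34% of all genes called and 2.17% called higher, and the list's median difference was 0.08, against 0.016 over all genes. None was called for the siRNA, where the smallest p belonged to Tor3a (0.27, adjusted p = 0.461). Without both 24 h arrays numbered 3 none of the 7 was called.

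Upstream of the members, none of 18 interferon genes measured was called in either comparison, and 4 of the 18 lay above the median signal of all genes. Ifnl2, an interferon lambda, was the highest at the 71.5 percentile, and Ifnb1, interferon beta, was at the 7.63 percentile. Of 16 receptor and signalling genes none was called, with Stat3 at 0.24 (adjusted p = 0.135) and the kinase gene Tyk2 at 0.25 (adjusted p = 0.185) over time. Of 16 nucleic acid sensors and adaptors, Mavs, the mitochondrial adaptor of the RNA sensors, rose over time by 0.51 (adjusted p = 0.0165). Sting1, the adaptor of the DNA sensor cGAS, fell by 0.42 on the log2 scale (adjusted p = 0.00963). Sting1 differed for the siRNA by 0.37 (SE 0.07, adjusted p = 0.275).

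Members with and without an ISRE core in the window were set side by side. Over time 2 of 13 measured members with the motif were called (Ifit1 and Stat2), with a median difference of 0.29. Without it 4 of 18 were called (Parp3, Oasl2, Tap1 and Ifi35), with a median of 0.12. None of the 8 measured members outside the promoter table was called, and their median was 0.14. Over all genes 4.34% were called and 2.17% were called higher, with a median of 0.016. For the siRNA the medians were -0.03 with the motif and -0.0049 without it. These are descriptions of small sets, and no test of the difference was made.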

How the data were processed

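Total RNA from N1E-115 cells was measured on 9 Affymetrix whole-transcript arrays, 3 per group by sample title. Per the submitters' processing notes, the authors used oligo and RMA, and the deposited values are log2 signals per probe set, from 2.13 to 13.9. Quantile normalization, which RMA holds, hides a change shared by most genes. Of 41345 probe sets, 23521 carried 1 gene symbol in the platform annotation, 1814 several and 16010 none. The 22180 genes were tested on the deposited log2 values with limma 3.58.1 in R 4.3.3 (lmFit and eBayes, group means, all 9 arrays, 6 residual and 3.55 prior degrees of freedom). Genes with an adjusted p (Benjamini-Hochberg, all 22180 genes) under 0.05 count as called. The code was tested on simulated data.

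The members, the role groups and the other lists were chosen with earlier results of these data known. Values on every array are given for Hmgn5, for called members, for the 5 smallest p per comparison, for the 3 highest and 3 lowest means and for the 3 largest within-group SDs. Isg15 and Ifitm3 were added after their values were seen. Motifs were searched in RefSeq promoter windows (GRCm38.p6), and the array's own build is not given in the sources used here.

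Whether replicate numbers pair the samples was checked from the deviations from the group means. Same-numbered arrays of Hmgn5 siRNA and control siRNA at 24 h correlated at 0.271, 0.128 and 0.386, which was taken as pairing. Differently numbered arrays of these groups ran from -0.302 to 0.123. The highest, Hmgn5 siRNA replicate 2 with control replicate 1, was close to the lowest same-numbered value, so the pairing is uncertain. The main fit held no block, and blocked fits are given as alternatives. Same-numbered arrays of control 24 h and 4 h correlated at 0.0392, 0.0381 and 0.0771, which was not taken as pairing. Alternatives varied the block, the arrays in the fit, the prior, array weights, a filter on the dimmest 33% of genes, normalization, centring, the probe set rule and each array left out. The number of arrays limits the precision.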

Additional observations from a re-analysis of the deposited data

How the results depend on the processing

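The members called for the siRNA numbered 0 in every alternative run. Over time, Parp3 and Stat2 were called in each of the 20 alternatives, and the count of 6 members was 3 in a fit of only the 2 groups, 2 in that fit with the replicate block, and 2 to 6 with an array left out. With the block in all 9 arrays there were 7, with Isg15 and Usp18 in and Tap1 out. With each array centred on its median, 5 members were higher and Ifitm3 lower, and the split over all genes was 389 higher and 625 lower, against 481 and 482 as deposited. The members' median over time was 0.18 without the dimmest 33% of genes, 0.13 after centring and 0.10 to 0.18 with an array left out, and the siRNA median was -0.0173 to 0.0394.

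Of all genes, the siRNA calls numbered 1 with the replicate block (in all arrays or in the 2 groups), 5 with a trend and robust prior, 7 with array weights, 0 without both 24 h arrays numbered 3 and 0 to 2 with an array left out. Calls over time numbered 280 in the 2 groups alone, 43 there with the block, 1685 with array weights, 266 without both arrays numbered 3 and 310 to 1238 with an array left out. Between Hmgn5 siRNA cells at 24 h and control cells at 4 h, the members called were 7 with the block, 0 with the block in 2 groups and 3 to 7 with an array left out. The main fit called 4 members there (10.3%; 2.57% of all genes). Shares over all genes in these alternatives are not given here, so their member counts cannot be set against a background. The other interferon-stimulated genes called over time were 1 in the 2 groups, 1 there with the block, 0 without both arrays numbered 3 and 2 to 6 with an array left out. Hmgn5 differed by -1.23 without both arrays numbered 3, with an adjusted p of 0.200, and by -1.24 to -1.18 with an array left out. Its call was lost without Hmgn5 siRNA replicate 2 (adjusted p = 0.0552) or replicate 3 (0.0506), or without control 24 h replicate 1 (0.0558). The causes were not tested.

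Changes of sign concerned values that were not called. Array weights gave B2m 0.0234 and Ifi27 -0.00882 over time and Ifih1 -0.0429 for the siRNA. Without both arrays numbered 3, the siRNA difference was 0.0687 for Ifit2 and -0.0639 for Ifih1. With an array left out, the siRNA difference ran from -0.434 to 0.219 for Ifit1, from -0.278 to 0.0708 for Oasl2, from -0.108 to 0.0514 for Ifit2 and from -0.236 to 0.212 for Ifih1. The time difference then ran from -0.0923 to 0.0518 for B2m, from -0.0184 to 0.129 for Ifi27 and from -0.0498 to 0.0315 for Gbp3.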
